A study of Mus musculus with 12 samples.

Results

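Thalamus of Gbx2 knockout (KO) mouse embryos was set against wild-type (WT) epithalamus, with WT thalamus of the same chip read beside it, to describe which genes still separate the KO thalamus from its dorsal neighbour and which no longer do. The members were chosen by their labels: KO thalamus replicates 1 and 2 and the single array described as WT epithalamus, which are 3 of the 12 arrays of the series. All are Illumina mouse bead arrays of chip 1. The groups read here are Gbx2-KO thalamus, WT thalamus and WT epithalamus, all from CD1 embryos at E12.5, with 2, 2 and 1 arrays on chip 1, and Gbx2-KO and WT thalamus with 2 arrays each on chip 2. The tissue field reads thalamus for every array, so the epithalamus was placed by its description. Neither the knockout allele nor the number of embryos behind an array is given in the labels. Replicate 5 of each genotype on chip 2, which the labels exclude as an outlier, was used only where named.

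The thalamus relays sensory and motor signals to the cortex, and the epithalamus, which lies dorsal to it, gives rise to the habenula and the pineal gland. Gbx2 encodes a homeobox transcription factor that is switched on in newborn neurons of the caudal thalamus, whose neurons are glutamatergic. The rostral thalamus beside it makes GABAergic neurons, and the pretectum lies caudal to both. The question named by the series title is whether Gbx2 keeps thalamic neurons thalamic and holds habenular features back.

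The probes that measured the genes on which the results turn are given here by the first 30 of their 50 bases, decoded from the probe identifiers of the deposited table and written 5′ to 3′ with no base picked out. The first 4 belong to marker genes that were higher in thalamus of both genotypes than in epithalamus.
Gbx2 (chromosome 1): cctggccttgtatatcctatctgagccatg
Sema5a (chromosome 15): cccgctcatcgtctctctgccaacgttttg
Olig3 (chromosome 10): ctgcatgcggggttgggtcggttacccctc
Chst1 (chromosome 2): gtctgagtcttgtggctacccctagaccag
The next 4 belong to genes higher in WT thalamus than in epithalamus, but not in KO thalamus.
Cyp1b1 (chromosome 17): gtgcacacagatcctccgtacacagaatta
Ntng1 (chromosome 3): gatttatggtgatcatgtgactctagggat
Id4 (chromosome 13): cgaccagactgctaagtagaagagcaatcg
Kirrel3 (chromosome 9): gctgatgaccacaaggaacaatgatccatt
Zic4 and Fgf15 were lower in WT thalamus than in epithalamus but not in KO thalamus, and Tfap2b and Gata3 were lower than in epithalamus in both.
Zic4 (chromosome 9): cgacctacatcagagaagcaaaagtgtgcc
Fgf15 (chromosome 7): gcctgtgtcaacctggacccctcatttaca
Tfap2b (chromosome 1): ctcaccgaggcgctcaaaggcatggacaag
Gata3 (chromosome 2): ggcctacatgctctgtgaatcagtccctgt

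Values are log2 intensities after background correction and quantile normalization within a chip, and differences are on the same log2 scale. A gene was compared where it was detected at p under 0.05 on every array of KO thalamus, of WT thalamus or of the epithalamus, which 9976 of 23388 genes were. It was counted as separated where both thalamus arrays of a genotype lay 2-fold or more, a log2 difference of 1 or more, to the same side of the epithalamus array. With 1 epithalamus array there is no replicate check of these differences and no test. KO and WT thalamus are set against the same array, so whatever is particular to that array is shared by both comparisons. The number of arrays limits the precision. In dissected tissue, fewer cells of a type and less RNA per cell cannot be told apart.

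The chip 1 arrays differed in how closely replicates matched. KO replicates 1 and 2 differed 2-fold in 44 genes (0.441%, r = 0.990 across genes), whereas WT replicates 1 and 2 differed 2-fold in 765 genes (7.67%, r = 0.955). The epithalamus array differed 2-fold from KO replicates 1 and 2 in 522 and 494 genes, and from WT replicates 1 and 2 in 338 and 531. Between 30.7% and 36.0% of probes were detected on chip 1, and between 44.8% and 46.4% on chip 2.

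The epithalamus label was set against its markers. The habenular genes Pou4f1, Chrnb3, Chrnb4, Tac2, Chat and Gpr151, lay below detection on every chip 1 array read here: Pou4f1, the transcription factor that defines habenular neurons, had 4.66 and 4.59 in KO thalamus, 4.65 and 4.44 in WT thalamus and 4.56 in epithalamus. The array did stand apart in Msx1, which encodes a homeodomain factor of the roof plate and was detected only there among these arrays, at 7.20, and in Nr4a2, a nuclear receptor of habenular neurons, at 9.66 against 7.62 and 8.43 in KO thalamus. Of the thalamic markers, Olig3 was not detected on it and Sema5a was detected but low, at 5.95. Both were named as markers with this comparison, so their low values are not an independent check of the label. The array also carried high levels of genes of the pretectum and of GABAergic neurons, described below. The low thalamic genes, Msx1 and Nr4a2 thus go with the label, while the defining habenular genes were not detected on the array. Msx1 was the only 1 of 10 dorsal midline genes compared, and Nr4a2 of 11 habenular genes, that was 2-fold lower in WT thalamus. The habenular genes Gng8 and Etv1 were 2-fold lower on the array than in WT thalamus. Zic2 and Rspo3 of the midline list were lower on it than in KO thalamus. Wnt3a, Rspo2, Lmx1a, Bmp4, Bmp6 and Tph1 of that list were not detected on any of these arrays.

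KO thalamus was higher than epithalamus in 140 genes (1.4% of those compared) and lower in 241 (2.42%). WT thalamus was higher in 68 (0.682%) and lower in 93 (0.932%). Both arrays had to agree, and the WT arrays differed from each other more than the KO arrays did. Against a single array, WT thalamus was higher in 212 and lower in 343 genes without replicate 1, and 187 and 172 without replicate 2. KO thalamus was higher in 195 and lower in 302 without replicate 1, and 185 and 340 without replicate 2. Of the 68 genes higher in WT thalamus, 27 were also higher in KO thalamus on both arrays, 5 on 1 of the 2, and 36 on neither. Of the 93 genes lower in WT thalamus, 80 were also lower on both KO arrays, 3 on 1 of the 2, and 10 on neither. A further 72 genes were higher and 78 lower in KO thalamus with neither WT array separated to the same side. In 41 higher and 81 lower genes only 1 of the 2 WT arrays was separated to the same side. A WT array separated to the other side did not count, as in the newly higher Zic2, with WT replicate 2 at -1.3 from epithalamus. Single arrays moved these counts. Without WT replicate 1, lost thalamus-high genes numbered 166, and epithalamus-high genes 129 kept and 174 lost. With WT replicate 2 left out instead, 60 thalamus-high genes were kept and 113 lost, 49 epithalamus-high genes were lost and 123 genes were newly lower. Without KO replicate 1 there were 116 newly higher and 121 newly lower genes, and without KO replicate 2 there were 146 newly lower. All 36 and all 10 lost genes were among those lost in each of these settings, which only drop a condition.

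**Figure D1:**
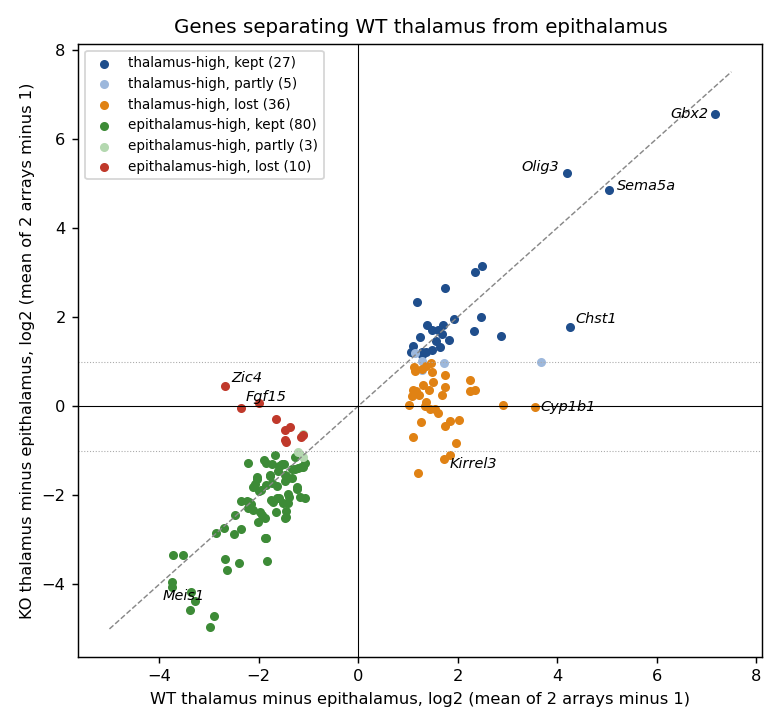
Each point is 1 of the 161 genes that separated WT thalamus from epithalamus on chip 1, with the log2 difference of the WT mean from epithalamus on the x axis and that of the KO mean on the y axis (2 arrays a genotype, 1 epithalamus array). The dashed line marks equal differences and the dotted lines 2-fold. Gbx2, Sema5a and Olig3 lie far up at the right, whereas the 36 lost thalamus-high genes, Cyp1b1 among them, lie below the upper dotted line, between -1.49 and 0.96 in KO thalamus.

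The genes that still set KO thalamus above epithalamus were led by Gbx2 itself, Olig3 and Sema5a. Gbx2 had 13.04 and 12.77 in KO thalamus, against 13.73 and 13.30 in WT thalamus and 6.35 in epithalamus, so the transcript that the probe reads was still 6.56 above the epithalamus in the mutant and 7.17 above it in WT. Both genotypes lay far above the epithalamus. The labels do not say which part of the gene was deleted, so this signal does not tell what the mutant transcript encodes. Olig3, a basic helix-loop-helix factor of thalamic progenitors, had 10.21 and 10.26 in KO thalamus and 9.64 and 8.75 in WT thalamus, and was not detected in epithalamus, which makes KO thalamus at least 29.01-fold and WT thalamus at least 14.18-fold higher. Its relative Olig1 had 8.01 and 7.94 in KO thalamus and 7.19 and 7.44 in WT thalamus and was likewise not detected in epithalamus, which lay at least 6.08-fold below KO and 3.84-fold below WT thalamus. In both Olig genes the KO arrays were the higher ones.

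Sema5a, a semaphorin that guides growing axons, had 10.98 and 10.61 in KO thalamus, 11.01 and 10.98 in WT thalamus and 5.95 in epithalamus. The genotypes nearly coincided and both lay about equally far above the epithalamus, by 4.84 and 5.05. These values come from the brightest of 3 Sema5a probes, since the other 2 were not detected on any of these arrays. Gng8, a G protein gamma subunit that marks habenular neurons later in life, had 10.55 and 10.60 in KO thalamus, 9.77 and 10.04 in WT thalamus and 7.42 in epithalamus, so this habenular marker was higher in thalamus. Crabp2, which binds retinoic acid inside cells, had 9.02 and 8.89 in KO thalamus, 9.32 and 9.5 in WT thalamus and 6.95 in epithalamus. Pou2f2, a POU homeobox gene, had 7.80 and 7.94 in KO thalamus, 7.86 and 8.01 in WT thalamus and 6.26 in epithalamus. Hs3st1, an enzyme that sulphates heparan sulphate chains, had 7.25 and 7.64 in KO thalamus, 6.97 and 6.15 in WT thalamus, and was not detected in epithalamus, where it was at least 4.2-fold below KO thalamus.

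Chst1, a sulphotransferase that modifies keratan sulphate, kept a smaller separation than in WT thalamus. It had 9.89 and 9.71 in KO thalamus, 12.29 and 12.28 in WT thalamus and 8.04 in epithalamus, a difference from epithalamus of 1.77 in KO and 4.25 in WT thalamus. The KO arrays lay between the other groups. The fifth marker, Cntn2, a cell adhesion protein of the contactin family carried by growing axons, had 10.63 and 11.04 in KO thalamus, 10.50 and 9.70 in WT thalamus and 11.19 in epithalamus. It was below 2-fold on both KO arrays and on 1 WT array and so belonged to no class. Among the 27 genes still higher, the KO difference from epithalamus exceeded the WT difference in 13, and 5 of the 27 were not detected in epithalamus.

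Genes high in KO thalamus with uneven WT arrays are named for completeness. Haus1, a subunit of the spindle complex augmin, had 7.76 and 7.64 in KO thalamus, but 8.72 on WT replicate 1 and no detected signal on WT replicate 2 or in epithalamus. Pdlim3 had 7.5 and 7.49 in KO thalamus, 5.48 and 8.28 in WT thalamus and no detected signal in epithalamus. Itgb3bp, a centromere protein, had 8.68 and 8.40 in KO thalamus, 8.18 and 5.43 in WT thalamus and 6.16 in epithalamus. The KO pair lay close together in each, and the WT pair did not. Mmd2 had 10.70 and 10.52 in KO thalamus, 9.31 and 9.13 in WT thalamus and 8.23 in epithalamus.

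The 36 thalamus-high genes that no longer separated had a median KO difference from epithalamus of 0.24 and a median WT difference of 1.48. In 17 of them both KO arrays lay within 0.5 of the epithalamus array, and in 13 the KO mean was below it. Cyp1b1, a cytochrome P450 that can make retinoic acid from retinol, had 8.15 and 8.54 in WT thalamus and was not detected in KO thalamus (4.81 and 4.75) or in epithalamus (4.79). WT thalamus was at least 7.24-fold higher than KO thalamus and at least 7.83-fold higher than epithalamus. Ntng1, netrin-G1, a membrane-bound guidance protein of thalamic axons, had 6.48 and 6.18 in KO thalamus, 9.20 and 9.21 in WT thalamus and 6.29 in epithalamus. The KO arrays lay on either side of the epithalamus array. Rora, a nuclear receptor of thalamic relay neurons, had 5.80 and 5.84 in KO thalamus, 8.13 and 7.90 in WT thalamus and 6.16 in epithalamus.

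In another 4 lost genes both KO arrays lay below the epithalamus array, further than in Rora, Thsd7b and Hs6st2, where they also did. Id4, which blocks basic helix-loop-helix proteins, had 7.35 and 7.65 in KO thalamus, 10.47 and 10.10 in WT thalamus and 8.33 in epithalamus. Its second probe gave -0.69 for KO and 2.13 for WT thalamus relative to epithalamus, against -0.83 and 1.96 on the first. Kirrel3, an immunoglobulin-family adhesion protein, had 5.24 and 5.79 in KO thalamus, 8.66 and 8.18 in WT thalamus and 6.71 in epithalamus. Sertad4 had 6.73 and 6.48 in KO thalamus, 9.38 and 9.23 in WT thalamus and 8.10 in epithalamus. Ppm1h, a protein phosphatase, had 6.13 and 6.30 in KO thalamus, 8.73 and 9.61 in WT thalamus and 7.32 in epithalamus. Sertad4 and Ppm1h were at least 2-fold below the epithalamus on both KO arrays.

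Other lost genes named by the same rule were Thsd7b, Hs6st2 and Slc18a2. Thsd7b had 5.03 and 5.29 in KO thalamus, 7.78 and 7.22 in WT thalamus and 5.47 in epithalamus. Hs6st2, a heparan sulphate 6-O-sulphotransferase, had 7.16 and 6.83 in KO thalamus, 8.77 and 9.60 in WT thalamus and 7.44 in epithalamus. Slc18a2, the vesicular monoamine transporter, which thalamic neurons carry for a time in development, had 6.21 and 6.17 in KO thalamus, 8.79 and 7.55 in WT thalamus and 5.82 in epithalamus. In each of these the KO arrays lay below both WT arrays and close to the epithalamus array.

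A further 4 lost genes were picked after their values were seen, because they belong to guidance, adhesion or the calcium-binding proteins that mark thalamic neurons. Robo2, a receptor for Slit proteins, had 7.61 and 7.26 in KO thalamus, 9.07 and 9.63 in WT thalamus and 7.10 in epithalamus, and its 3 other probes gave KO differences of -0.02, -0.02 and 0.91 and WT differences of 1.13, 1.61 and 1.90 from epithalamus, so that on 1 of them KO thalamus lay nearer to the 2-fold limit than to the epithalamus. Efna5, an ephrin that patterns thalamic projections, had 9.93 and 9.77 in KO thalamus, 10.78 and 10.62 in WT thalamus and 9.62 in epithalamus. Calb2, calretinin, had 5.86 and 6.51 in WT thalamus and was not detected in KO thalamus or epithalamus. Cd47, a membrane protein with an immunoglobulin domain, had 8.93 and 8.86 in KO thalamus, 9.86 and 10.52 in WT thalamus and 8.81 in epithalamus.

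**Figure D2:**
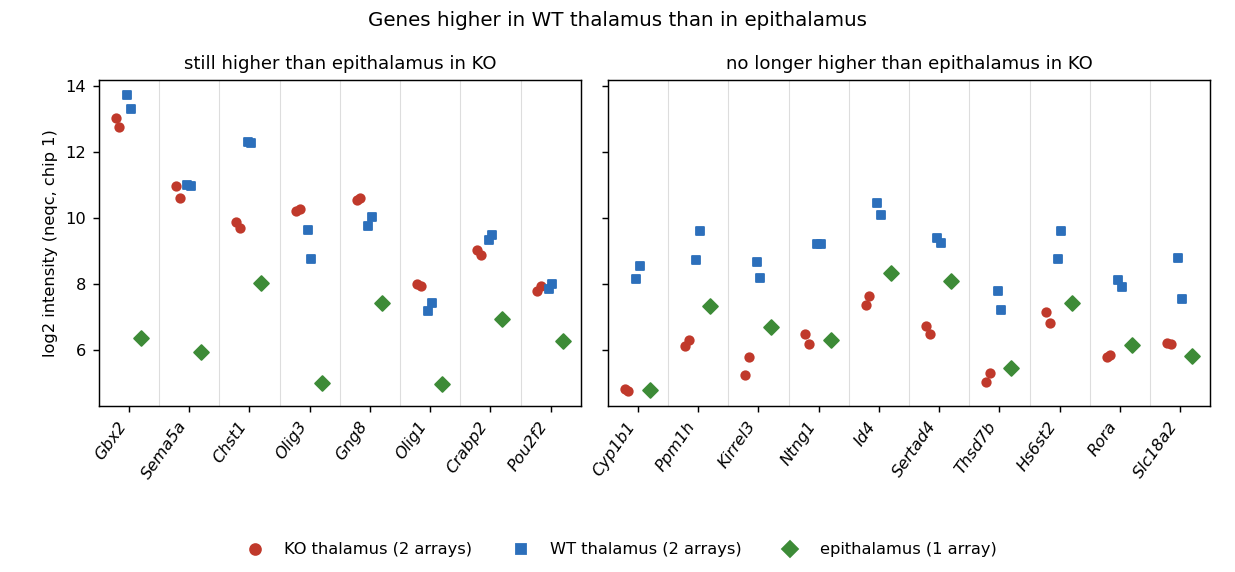
Points are log2 intensities of single chip 1 arrays for the named genes that were higher in WT thalamus than in epithalamus: KO thalamus as circles, WT thalamus as squares and epithalamus as diamonds. In the left panel the KO arrays stay with the WT arrays, Chst1 lying between, and in the right panel they lie at or below the epithalamus array in most genes.

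The chip 2 arrays, which had no part in choosing the classes, gave an independent reading of genotype. There KO and WT thalamus were compared with limma over 10551 genes, of which 86 fell (0.815%) and 30 rose (0.284%) at a limma adjusted p under 0.05. All 36 lost thalamus-high genes were lower in KO than in WT on chip 2, where 54.3% of all genes compared were. Their median was -2.29, also with 3 genes that no KO array detected set at their lower limits, beside -0.05 for all genes, and in 34 of the 36 both KO arrays lay below both WT arrays, which 27.5% of all genes did. Of the 36, 21 fell past the threshold. Of the 36, 32 were detected on all 4 arrays of that fit, and among these the median was -2.24 with 17 called.

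Cyp1b1 had 11.02 and 12.07 on chip 2 in WT thalamus and was not detected on either KO array (5.40 and 5.64), which makes it at least 52.64-fold lower in KO than in WT thalamus (limma adjusted p = 0.000857). Kirrel3 had 6.81 and 6.80 in KO against 10.87 and 11.25 in WT thalamus (-4.26, limma adjusted p = 0.00109). The genotypes lay far apart in both genes. Both KO arrays lay below both WT arrays in them, as in 27.5% of all genes compared. Id4 had 10.46 and 10.11 in KO against 13.88 and 13.87 in WT thalamus (-3.59, limma adjusted p = 0.00267), and Ntng1 8.95 and 10.04 against 13.17 and 12.77 (-3.47, limma adjusted p = 0.0104). Calb2 was not detected on either KO array and was at least 15.46-fold lower than in WT thalamus (limma adjusted p = 0.000857). Differences past the threshold were also -3.48 for Hs6st2, -3.78 for Rora and -2.58 for Robo2, whereas Slc18a2 at -2.97 and Efna5 at -1.01 did not pass (limma adjusted p = 0.0519 and 0.116).

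Of the 27 genes that still separated, 21 were below 0 on chip 2, beside 54.3% of all genes compared, and the median was -0.27. Of the 27, 3 were called lower and none higher, beside 0.815% and 0.284% of all genes tested. The 3 were Gbx2, with 13.76 and 14.05 in KO against 15.94 and 15.73 in WT thalamus (-1.93 ± 0.29, SE, limma adjusted p = 0.0271), Chst1, with 12.04 and 12.94 against 15.46 and 15 (-2.74, limma adjusted p = 0.0212), and Syt13, a synaptotagmin (-2.43, limma adjusted p = 0.0445). Sema5a at -0.27 and Olig3 at 0.80 did not pass (limma adjusted p = 0.685 and 0.253). Cntn2 rose, with 13.15 and 12.90 in KO against 10.83 and 10.64 in WT thalamus (2.29, limma adjusted p = 0.0152).

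The calls on chip 2 rest on a pair of arrays a genotype. Over all genes 5 fell and 0 rose without KO replicate 3 (658 and 494 at an unadjusted p under 0.05), and 292 fell and 221 rose without KO replicate 4. Of the 36 lost genes, 4 were called without KO replicate 3 and 0 with the excluded replicate 5 added to each genotype. With it, 2 genes fell and 1 rose over all genes, and the median of the 36 was -1.18 with all 36 below 0. On chip 2 the Y-linked gene Eif2s3y was at 4.73 on KO replicate 3 and at 10.10 on KO replicate 4, against 10.95 and 11.70 in WT thalamus, so that KO replicate also differed from the rest in a sex-linked gene, and what part this has in the calls was not tested.

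**Figure D3:**
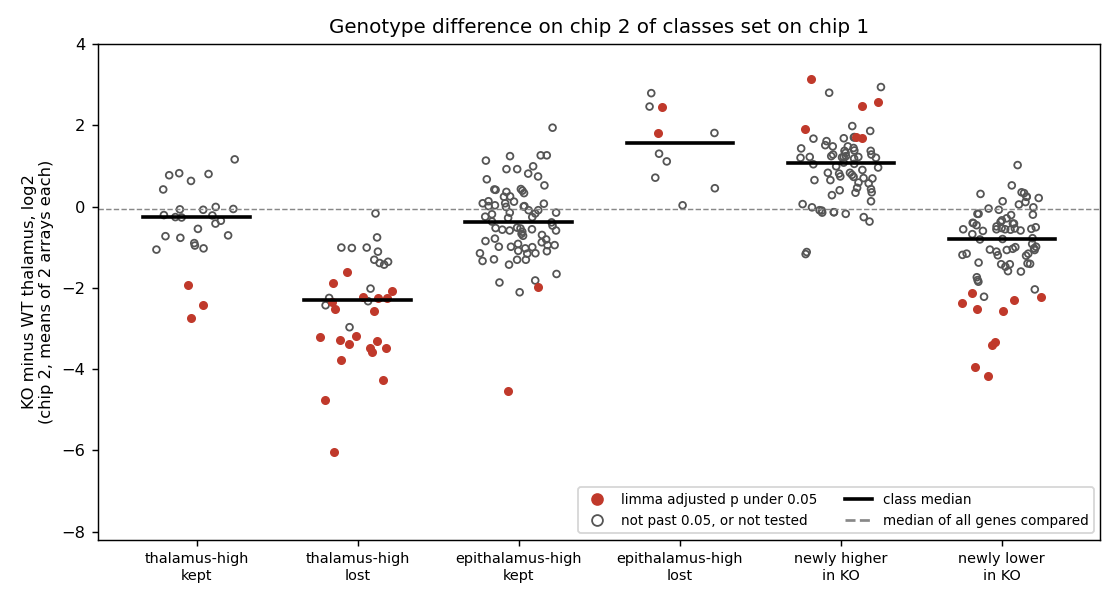
Each point is a gene of a class set on chip 1, at its KO minus WT difference on chip 2 (log2, means of 2 arrays each, undetected genes at their measured signal). Filled points passed limma's adjusted p of 0.05, bars are class medians and the dashed line is the median of all genes compared. The lost thalamus-high genes centre on -2.29 and the lost epithalamus-high genes on 1.55, while the medians of the kept classes are -0.27 and -0.38.

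The genes that still set KO thalamus below epithalamus, 80 in number, were led by transcription factors of the pretectum and of GABAergic neurons. Their median difference was -2.06 in KO and -1.81 in WT thalamus, though 36 of the 80 were not detected on either KO array and 21 on neither the KO nor the WT arrays, so that these differences were measured against background. Of the 28 detected on every KO and WT array, KO thalamus lay further below the epithalamus than WT thalamus in 17. Tfap2d, an AP-2 transcription factor, had 4.93 and 6.27 in KO thalamus, 8.10 and 7.05 in WT thalamus and 10.56 in epithalamus. Its relative Tfap2b had 5.09 and 5.13 in KO thalamus, 5.01 and 4.79 in WT thalamus and 8.43 in epithalamus, and was detected only in epithalamus, at least 7.7-fold above KO thalamus. Bhlhe23, a basic helix-loop-helix factor, had 4.67 and 4.84 in KO thalamus, 7.63 and 5.53 in WT thalamus and 9.48 in epithalamus, at least 15.88-fold above KO thalamus. Meis1, a homeobox gene, had 5.43 and 5.62 in KO thalamus, 6.27 and 5.17 in WT thalamus and 9.46 in epithalamus.

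Genes of other roles were in the same group. Unc5b, a netrin receptor, had 5.80 and 6.53 in KO thalamus, 6.45 and 5.89 in WT thalamus and 9.01 in epithalamus. Slc30a3, the zinc transporter of synaptic vesicles, had 5.09 and 5.18 in KO thalamus, 5.10 and 5.79 in WT thalamus and 9.18 in epithalamus. Smoc1, a secreted calcium-binding protein, had 5.93 and 6.39 in KO thalamus, 5.93 and 5.63 in WT thalamus and 9.5 in epithalamus. The genotypes overlapped in these 3 genes. Bcas1 had 4.63 and 5.16 in KO thalamus, 5.87 and 5.40 in WT thalamus and 8.32 in epithalamus, and Fibcd1 7.38 and 7.62 in KO, 7.65 and 8.10 in WT thalamus and 10.37 in epithalamus. On chip 2 the 80 genes had a median KO minus WT difference of -0.38, and 51 were below 0, beside 54.3% of all genes compared. Of the 59 tested, 2 were called lower and none higher, beside 0.815% and 0.284% of all genes tested.

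The GABAergic genes that could be compared were lower in KO thalamus than in epithalamus, but the WT arrays did not agree on them. All 8 genes compared, of 12 in the rostral thalamic list, were 2-fold lower in KO thalamus (median -3.36) and 6 of 8 in WT thalamus (median -2.54). Over all genes compared, 2.42% were lower in KO and 0.932% in WT thalamus. All 8 were detected in epithalamus, and Gad1, detected on 1 array of each thalamus genotype, was compared only for that reason. The 1-sided count is thus partly set by the filter. Gad1, which makes GABA, had 5.09 and 6.05 in KO thalamus, 4.84 and 8.70 in WT thalamus and 10.15 in epithalamus. Gata3, a transcription factor of rostral thalamic neurons, had 5.83 and 5.73 in KO thalamus, 5.18 and 8.56 in WT thalamus and 10.15 in epithalamus. The vesicular GABA transporter Slc32a1 had 6.09 and 6.36 in KO thalamus, 5.82 and 8.73 in WT thalamus and 9.90 in epithalamus. In these 3 genes WT replicate 2 was high and the KO arrays stood nearer to WT replicate 1. Tal2, a basic helix-loop-helix factor of the same neurons, had 7.29 and 7.93 in KO thalamus, 8.13 and 9.32 in WT thalamus and 11.12 in epithalamus. Lhx5, a LIM homeobox gene of the prethalamic list, had 5.24 and 5.38 in KO thalamus, 5.03 and 8.11 in WT thalamus and 9.09 in epithalamus. Nkx2-2, a homeobox gene of the rostral thalamic list that was not compared, went the other way. It had 5.45 and 5.86 in KO thalamus, detected on 1 of these arrays, and 4.69 and 9.40 in WT thalamus, detected on replicate 2. In epithalamus it had no detected signal (4.48). The rostral thalamic list summed on the linear scale to 617 and 791 in KO thalamus, 626 and 3369 in WT thalamus and 7959 in epithalamus. On chip 2 Gad1 had 6.10 and 8.08 in KO against 8.68 and 9.13 in WT thalamus (-1.82, limma adjusted p = 0.15), so KO arrays also differed among themselves, and 0 of the 7 list genes tested there were called (3 at an unadjusted p under 0.05, all lower, where 10.5% of all genes tested were lower and 8.2% higher at that p). These genes mark GABAergic neurons of neighbouring regions, so their part in the other differences from the epithalamus array was not tested.

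The pretectal and midbrain list gave the same counts in both genotypes. Of 12 genes compared, 8 were lower and 0 higher in KO thalamus (median -2.37), and 8 were lower and 0 higher in WT thalamus (median -1.78). Over all genes compared, 2.42% were lower in KO and 0.932% in WT thalamus. All 12 were detected in epithalamus, and Bhlhe23, Tfap2b, Meis1 and Pax3 were compared only because they were. For such genes the filter favoured a lower thalamus, so the counts are partly set by it. Besides the genes above, the lower ones included Lhx1, a LIM homeobox gene, with 6.73 and 7.02 in KO thalamus, 5.39 and 9.96 in WT thalamus and 11.05 in epithalamus. The list summed to 4315 and 4033 in KO thalamus, 3625 and 4830 in WT thalamus and 14301 in epithalamus. Of its midbrain genes, Pax7 and En2 lay below detection on all 5 arrays, Pax3 was detected only in epithalamus, at 6.10, and En1 had 5.72 and 5.52 in KO thalamus and 5.55 in epithalamus and was not detected in WT thalamus. Barhl2, a homeobox gene, had 6.83 and 6.14 in KO thalamus, 5.81 and 5.77 in WT thalamus and 5.92 in epithalamus. On chip 2, 0 of the 5 list genes tested were called (0 lower and 1 higher at an unadjusted p under 0.05, beside 10.5% and 8.2% of all genes).

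**Figure D4:**
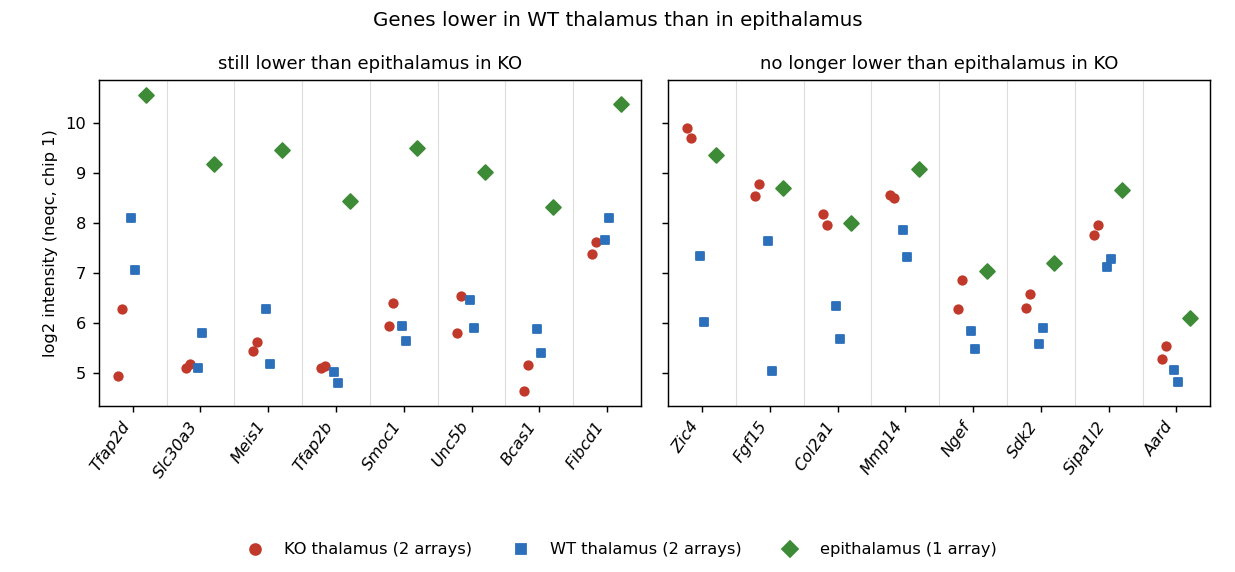
Points are log2 intensities of single chip 1 arrays for the named genes that were lower in WT thalamus than in epithalamus: KO thalamus as circles, WT thalamus as squares and epithalamus as diamonds. In the left panel both genotypes lie well below the epithalamus array, and in the right panel the KO arrays lie above the WT arrays and nearer to it, Zic4 even above it.

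The 10 epithalamus-high genes that KO thalamus lost no longer separated KO thalamus from epithalamus, with a median difference of -0.50 in KO and -1.48 in WT thalamus. Zic4, a zinc finger gene of the dorsal neural tube, had 9.89 and 9.70 in KO thalamus, 7.33 and 6.02 in WT thalamus and 9.36 in epithalamus. Of its 3 other probes, 2 gave KO differences of 0.57 and 0.60 and WT differences of -2.16 and -0.97, and the third 0.29 and -0.18. Fgf15, a fibroblast growth factor, had 8.54 and 8.78 in KO thalamus, 7.64 and 5.03 in WT thalamus and 8.70 in epithalamus. Col2a1, a collagen chain, had 8.18 and 7.95 in KO thalamus, 6.34 and 5.67 in WT thalamus and 8.0 in epithalamus. In these 3 the KO arrays lay at the level of the epithalamus array and above both WT arrays.

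The other named genes came only part of the way. Mmp14, a membrane-bound matrix protease, had 8.55 and 8.50 in KO thalamus, 7.86 and 7.31 in WT thalamus and 9.07 in epithalamus. Ngef, an exchange factor that acts with Eph receptors, had 6.28 and 6.86 in KO thalamus, 5.83 and 5.48 in WT thalamus and 7.04 in epithalamus. Sdk2, an adhesion protein, and Sipa1l2 lay just short of the 2-fold limit, each with its further KO array at -0.90, but on the median over its probes Sdk2 was 0.25 above the epithalamus in KO thalamus. Aard had 5.27 and 5.53 in KO thalamus, 5.06 and 4.81 in WT thalamus and 6.09 in epithalamus.

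On chip 2 all 10 were higher in KO than in WT thalamus, where 45.7% of all genes compared were, with a median of 1.55 and both KO arrays above both WT arrays in 8 of the 10 (22.7% of all genes). Of the 9 tested, 2 rose past the threshold, beside 0.284% of all genes tested: Ngef (8.25 and 8.80 in KO against 6.50 and 6.93 in WT thalamus, 1.81, limma adjusted p = 0.0445) and a gene known only by a locus number. This count rests on single arrays: 0 were called when either KO array was left out, 4 when WT replicate 3 was, 1 when WT replicate 4 was, and 0 when replicate 5 of each genotype was added. Zic4 had 11.45 and 10.88 in KO against 10.77 and 6.63 in WT thalamus, so its 2.46 had a wide spread in WT (limma adjusted p = 0.261). Fgf15 had 11.37 and 10.64 in KO against 9.34 and 7.08 in WT thalamus (2.79, limma adjusted p = 0.0801), and Col2a1 9.92 and 10.03 against 8.44 and 8.91 (1.30, limma adjusted p = 0.0801). The genotypes did not overlap in these 3 genes.

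Genes near the 2-fold limit give a sense of how sharp the classes were. Just inside it, Tmtc2 still separated by 1.1 on its nearer KO array, and just outside it Tshz1 and Camk4 reached 0.98 and 0.97 on their further one. Of the lost and kept classes, 7 lost thalamus-high genes and 5 kept ones lay within 0.2 of the limit. Among epithalamus-high genes Gli3, a hedgehog pathway transcription factor, was at -1.0 and Lrrc23 at -1.01, both just inside.

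Besides losing and keeping genes, KO thalamus differed from epithalamus in genes where no WT array was separated to the same side. The 72 genes newly higher in KO thalamus had a median of 1.27 in KO and 0.22 in WT thalamus. Nrp2, a receptor for class 3 semaphorins, had 7.0 and 7.48 in KO thalamus, 5.47 and 5.23 in WT thalamus and was not detected in epithalamus, at least 3.64-fold below KO thalamus. Its 3 other probes were detected on at most 1 KO array. Ppp2r2b, a regulatory subunit of protein phosphatase 2A, had 8.68 and 8.96 in KO thalamus, 7.28 and 7.30 in WT thalamus and 6.66 in epithalamus.

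Histone genes stood out in this class: 9 of the 72 were core histones, among them H2bc9 with 8.99 and 8.95 in KO thalamus, 8.0 and 6.94 in WT thalamus and 7.03 in epithalamus. H2bc7 had 9.54 and 9.55 in KO thalamus, 8.50 and 7.26 in WT thalamus and 7.69 in epithalamus, and H2bc15 9.0 and 9.05, 8.2 and 7.04, and 7.33 in the same order. Histone genes were grouped after their values were seen. Of the 37 compared, 14 were 2-fold higher in KO thalamus than in epithalamus and 0 in WT thalamus, with medians of 0.86 and 0.19. Over all genes compared, 1.4% and 0.682% were higher. On chip 2 30 of the 37 were higher in KO than in WT thalamus (median 0.68) and 0 were called (20 higher and 2 lower at an unadjusted p under 0.05, beside 8.2% and 10.5% of all genes). The members are close relatives in sequence, so their probes may share signal.

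Proliferation genes also lay higher in KO thalamus. None of the 12 compared reached 2-fold on both KO arrays, but all lay above the epithalamus in KO thalamus (0.28 to 1.04, median 0.78), whereas the WT median was -0.22. The list summed to 11799 and 11528 in KO thalamus, 8918 and 4738 in WT thalamus and 7454 in epithalamus, so WT replicate 2 lay far below WT replicate 1 and the KO arrays above all others. Birc5, which acts in mitosis, had 10.19 and 10.08 in KO thalamus, 9.40 and 8.67 in WT thalamus and 9.09 in epithalamus. Top2a, topoisomerase II alpha, had 8.40 and 8.39 in KO thalamus, 7.94 and 7.43 in WT thalamus and 7.51 in epithalamus. On chip 2 the list's median was 1.2, and 11 of 12 were higher and 0 lower at an unadjusted p under 0.05 (8.2% and 10.5% of all genes). After adjustment 2 of the 12 rose, beside 0.284% of all genes tested: Mcm10, a replication factor (2.63, limma adjusted p = 0.0293), and Rrm1, a ribonucleotide reductase subunit (2.17, limma adjusted p = 0.0486).

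Over all 72 newly higher genes the chip 2 median was 1.06 and 61 were above 0, beside 45.7% of all genes compared. Of the 72, 6 were called higher and none lower, beside 0.284% and 0.815% of all genes tested. Among the 6, picked after their values were seen, Shisa2, which dampens Wnt and Fgf signalling, had 9.64 and 9.72 in KO against 6.63 and 6.45 in WT thalamus (3.14, limma adjusted p = 0.00337). Ccnd1, cyclin D1, had 14.44 and 14.17 in KO against 12.66 and 12.13 in WT thalamus (1.91, limma adjusted p = 0.0346). Neither overlapped between genotypes, and both KO arrays lay above both WT arrays in 22.7% of all genes compared. Nrp2 at 0.83 did not pass (limma adjusted p = 0.4).

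The 78 newly lower genes had a median of -1.30 in KO and -0.39 in WT thalamus. Flrt1, a leucine-rich adhesion protein, had 6.10 and 6.35 in KO thalamus, 8.76 and 9.48 in WT thalamus and 9.74 in epithalamus. C1ql2, a secreted synaptic organiser, had 4.6 and 5.59 in KO thalamus, 8.21 and 8.62 in WT thalamus and 8.51 in epithalamus. Nxph1, neurexophilin 1, a ligand of neurexins, had 6.06 and 5.40 in KO thalamus, 7.54 and 8.69 in WT thalamus and 8.45 in epithalamus. In all 3 WT thalamus and epithalamus stood together and KO thalamus far below. Samd5 had 5.48 and 6.14 in KO thalamus, 7.94 and 8.26 in WT thalamus and 7.85 in epithalamus, and Dkk3, a member of the Dickkopf family, 7.27 and 7.19 in KO, 8.47 and 8.55 in WT thalamus and 9.12 in epithalamus.

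On chip 2 67 of these 78 were below 0 (median -0.79, or -0.67 with 4 genes that no KO array detected at their lower limits), beside 54.3% of all genes compared. Of the 71 tested, 10 fell and none rose, beside 0.815% and 0.284% of all genes tested. C1ql2 was not detected on either KO array (5.09 and 5.28), against 7.89 and 10.39 in WT thalamus, which makes it at least 9.91-fold lower (limma adjusted p = 0.0415). Nxph1 had 5.67 and 7.44 in KO, detected on 1 of the 2 arrays, against 10.06 and 11.40 in WT thalamus (-4.17, limma adjusted p = 0.0247), Samd5 6.60 and 7.04 against 10.35 and 10.09 (-3.40, limma adjusted p = 0.00337) and Flrt1 8.26 and 8.64 against 10.87 and 11.05 (-2.51, limma adjusted p = 0.0106). The genotypes did not overlap in these 4 genes, and both KO arrays lay below both WT arrays in 27.5% of all genes compared. Of the named genes of this class, Ttc27 and Epha7 did not lie lower in KO thalamus on chip 2. Ttc27 had 6.24 and 5.80 in KO, 8.95 and 8.33 in WT thalamus and 8.66 in epithalamus on chip 1, but 10.49 and 10.20 in KO against 9.96 and 10.06 in WT thalamus on chip 2. Epha7, an ephrin receptor, had 10.54 and 9.42 in KO against 9.74 and 9.96 in WT thalamus there, so the genotypes overlapped.

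The caudal thalamic list had fewer genes above the epithalamus in KO than in WT thalamus. Of 16 genes compared, 5 were higher and 1 lower in WT thalamus, against 2 higher and 2 lower in KO thalamus, with medians of 0.08 in KO and 0.84 in WT thalamus. Among all genes compared, 0.682% were higher and 0.932% lower in WT thalamus, and 1.4% and 2.42% in KO thalamus. On chip 2, 5 of the 16 fell, beside 0.815% of all genes tested. Lhx9, a LIM homeobox gene, had nearly the same level in both genotypes, with 10.29 on both KO arrays, 10.21 and 9.98 in WT thalamus and 9.14 in epithalamus. Tcf7l2, a transcription factor of the Wnt pathway and of thalamic neurons, had 6.19 and 5.87 in KO thalamus, 8.2 and 6.59 in WT thalamus and 7.82 in epithalamus, and on chip 2 its difference was -0.63 (limma adjusted p = 0.309). Epha7 had 5.28 and 5.11 in KO thalamus, 5.99 and 6.21 in WT thalamus and 6.87 in epithalamus.

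Of the 11 habenular genes compared, 1 was higher and 1 lower in KO thalamus and 2 were higher and 1 lower in WT thalamus. The medians were 0.10 in KO and -0.17 in WT thalamus, beside 0.00 and -0.03 for all genes. Among all genes compared, 1.4% were higher and 2.42% lower in KO thalamus, and 0.682% and 0.932% in WT thalamus. Nr4a2 had 7.62 and 8.43 in KO thalamus, 8.05 and 7.19 in WT thalamus and 9.66 in epithalamus, so the genotypes overlapped below the epithalamus. Isl1, a LIM homeobox gene, had 5.22 and 5.52 in KO thalamus, 5.35 and 5.32 in WT thalamus and 6.28 in epithalamus. Etv1 had 7.56 on both KO arrays, 8.29 and 7.72 in WT thalamus and 6.65 in epithalamus. Of the 8 habenular genes tested on chip 2, Cntn2 was the 1 that rose, beside 0.284% of all genes tested.

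Dorsal midline genes were mixed. Of 10 compared, 2 were higher and 2 lower in KO thalamus and 0 were higher and 1 lower in WT thalamus, with medians of 0.71 in KO and -0.32 in WT thalamus. The shares over all genes compared were 1.4% and 2.42% in KO, and 0.682% and 0.932% in WT thalamus. Zic2 had 7.93 and 7.84 in KO thalamus, 6.77 and 4.88 in WT thalamus and 6.17 in epithalamus. Rspo3, an R-spondin that strengthens Wnt signalling, had 6.71 and 6.58 in KO thalamus and was not detected in WT thalamus or in epithalamus, where it was at least 2.41-fold below KO thalamus. Msx1 had 5.09 and 5.08 in KO thalamus, 4.81 and 4.89 in WT thalamus and 7.20 in epithalamus, and Wnt8b, a Wnt ligand, 4.89 and 5.10 in KO, 5.75 and 5.95 in WT thalamus and 6.46 in epithalamus. On chip 2 Rspo3 had 10.45 and 8.38 in KO against 8.23 and 5.0 in WT thalamus and did not pass (2.80, limma adjusted p = 0.179), and 0 of the 6 tested were called (3 higher and 0 lower at an unadjusted p under 0.05, beside 8.2% and 10.5% of all genes).

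**Figure D5:**
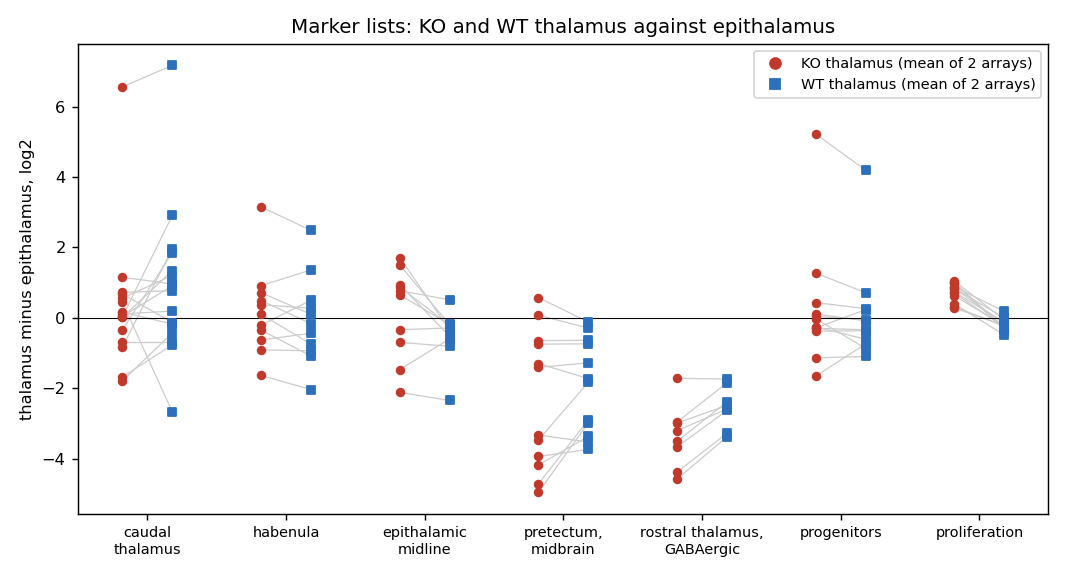
Each point is a list gene compared on chip 1, at the log2 difference of the KO mean (circles) or WT mean (squares) from the epithalamus array, with lines joining the same gene. The GABAergic genes compared lie below 0 in both genotypes. So do the pretectal and midbrain genes, except Barhl2 at 0.57 and En1 at 0.07 in KO thalamus. Some genes of these lists passed the filter only through epithalamus, which favoured values below 0. All proliferation genes lie above 0 in KO thalamus and mostly just below 0 in WT thalamus. Of the 10 caudal thalamic genes above 0 in WT thalamus, 9 lie lower in KO thalamus, Slc17a6 and Prox1 only slightly, Lhx9 being the exception. The 10 were taken by their WT value, which favoured a lower KO value. Outside them Cdh6, Cdh8 and Zic4 lie higher in KO thalamus, Lef1 level, and Tcf7l2 and Epha7 lower.

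Genes of axon guidance, adhesion and synapse formation went both ways on chip 1, and most of those called on chip 2 fell. Of 32 guidance genes compared, 2 were higher and 5 lower in KO thalamus, against 5 higher and 1 lower in WT thalamus, and 3 of the 28 tested on chip 2 fell. For these lists, the shares over all genes compared were 1.4% higher and 2.42% lower in KO, and 0.682% and 0.932% in WT thalamus. Over all genes tested on chip 2, 0.815% fell and 0.284% rose. Of 8 cadherins and protocadherins 2 fell there, as did 2 of 9 synaptic organisers and 2 of 14 immunoglobulin-family genes, of which 1 rose. At a limma unadjusted p under 0.05, 8 guidance genes were lower and 1 higher. In the other 3 lists, in that order, 3 and 1, 5 and 0, and 4 and 2 were, beside 10.5% and 8.2% of all genes. Of 8 cadherins and protocadherins, 3 were lower in KO and 1 in WT thalamus, with 0 higher in either. Pcdh9, a protocadherin, had 6.13 and 6.16 in KO thalamus, 7.24 and 8.05 in WT thalamus and 7.41 in epithalamus, and fell by 2.12 on chip 2 (limma adjusted p = 0.0183). Pcdh19 was not detected in KO thalamus (4.96 and 4.87) and had 5.50 and 5.6 in WT thalamus and 6.78 in epithalamus. On chip 2 it also fell, with 6.39 and 6.84 in KO against 8.26 and 8.92 in WT thalamus (-1.98, limma adjusted p = 0.0415). Cdh4 had 8.78 and 8.62 in KO, 9.60 and 10.34 in WT thalamus and 10.04 in epithalamus on chip 1. Of 9 synaptic organisers, 2 were higher and 4 lower in KO thalamus and 0 in either direction in WT thalamus. Of 14 immunoglobulin-family adhesion genes, 1 was higher and 2 lower in KO, and 1 higher and 0 lower in WT thalamus. Cntn5, a contactin, had 6.10 and 6.08 in KO thalamus and 5.18 and 4.98 in WT thalamus and was not detected in epithalamus, on the brightest of 3 probes, the other 2 not being detected.

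Most pan-neuronal and progenitor genes were not 2-fold apart from epithalamus on chip 1. Of 9 pan-neuronal genes, 1 was higher in KO thalamus: Nefm, a neurofilament subunit, with 8.97 and 9.10 in KO thalamus, 7.45 and 7.28 in WT thalamus and 7.91 in epithalamus. Of 12 progenitor genes, 2 were higher and 1 lower in KO thalamus and 1 higher and 1 lower in WT thalamus. Among all genes compared, 1.4% were higher and 2.42% lower in KO thalamus, and 0.682% and 0.932% in WT thalamus. Neurog2, a proneural factor, had 11.47 and 11.23 in KO thalamus, 11.11 and 10.46 in WT thalamus and 10.08 in epithalamus, and Slc1a3, the glial glutamate transporter of radial glia, 6.15 and 6.73 in KO, 7.26 and 7.48 in WT thalamus and 8.11 in epithalamus. On chip 2 the progenitor list had a median of 0.54, and 0 of the 11 tested were called. At a limma unadjusted p under 0.05, 5 of the 11 were higher and 1 lower, beside 8.2% and 10.5% of all genes. The pan-neuronal list had a median of -0.49 there, with 0 of 9 called and 2 higher and 0 lower at that unadjusted p. Of the 4 prethalamic genes compared, 2 were lower in KO thalamus and 0 in WT thalamus. All 4 were compared only because they were detected in epithalamus, which favoured a lower thalamus. The list summed to 161 and 146 in KO thalamus, 196 and 407 in WT thalamus and 762 in epithalamus.

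Markers of other cells did not separate KO thalamus or WT thalamus from epithalamus. None of the 4 erythroid, 6 endothelial, 1 meningeal and 2 choroid plexus genes compared was 2-fold apart in either genotype, and 0 of 5 microglial genes were detected on every array of a group. Erythroid genes summed to 11304 and 13557 in KO thalamus, 13434 and 15347 in WT thalamus and 12676 in epithalamus, and endothelial genes to 741 and 762, 765 and 853, and 742. The 2 choroid plexus genes compared, Enpp2 and Otx2, summed to 1645 and 1737 in KO thalamus, 1436 and 1384 in WT thalamus and 2383 in epithalamus. Most of each sum was Otx2, at 10.65 and 10.72 in KO thalamus, 10.26 and 10.32 in WT thalamus and 11.16 in epithalamus. Ttr, which defines that tissue, was detected on 1 KO array, at 5.66, and not in WT thalamus or epithalamus. Of the choroid plexus genes, Enpp2 fell on chip 2 (-1.79, limma adjusted p = 0.033).

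Promoters were searched for TAATTA, the core of many homeobox sites, which reads the same on both strands, in windows of 250 bases before to 50 after each RefSeq gene start (GRCm38.p6). It was in 1 of 22 lost and 1 of 14 kept thalamus-high genes with a window, in 0 of 6 lost and 5 of 54 kept epithalamus-high genes, and in 3.44% of the 6628 compared genes with one. A match is a description of letters and not a site.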

How the data were processed

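Total RNA of microdissected diencephalon was amplified to biotin-labelled cRNA and hybridised to Illumina bead arrays, per the labels' protocols. The deposited unnormalized tables hold a linear bead intensity per probe and array, per the file headers without normalization. The deposited detection columns hold a fraction near 1 for bright probes, so detection p was taken as 1 minus it. The deposited normalized tables hold log2 values made by a method not given in the sources used here, and they entered an alternative. BeadStudio, GenomeStudio and lumi appear in the submitters' processing notes, with no role.

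A deposited table joins 31459 probes over both chips, of which 31448 were used. The other 11 hold a mean on chip 1 and were not used. The probes used stand for 23388 genes, named through RefSeq tables of GRCm38.p6 by accession (19533 probes), symbol (2793) or synonym (2314), and otherwise as in the file (6808). Each chip was background-corrected by normexp from the detection p, offset by 16, quantile-normalized and put on the log2 scale by limma's neqc function (limma 3.58.1, R 4.3.3), over 6 arrays of chip 1 and 4 of chip 2. Counts were made with Python 3.11.15 and pandas 2.3.3. The probe with the highest mean over the 5 chip 1 arrays stood for its gene. Where no array of a group detected a gene, the fold is a lower limit (at least N-fold), taken on each array against its dimmest detected probe or the gene itself, whichever was brighter.

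The fit of KO against WT thalamus on chip 2 used lmFit and eBayes of limma, two-sided, with Benjamini-Hochberg adjustment at 0.05, over genes detected on both arrays of 1 genotype. P-values measure the spread between these arrays, which the labels do not say to be separate embryos. On simulated data for this fit of 10551 genes, 0 of 67 genes changed by 1 on the log2 scale, 21 of 67 by 2 and 36 of 66 by 3 were recovered, with 2 false calls.

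The groups, gene lists and named genes were chosen with earlier results of these data known. The rule took the 5 markers, the 10 largest differences from epithalamus in each direction, the 8 largest kept, 10 most changed lost and 6 largest newly separated genes in each direction, and up to 4 members of each list, passing over clone names. A gene that this rule took is not reported here.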

Additional observations from a re-analysis of the deposited data

Results flagged for a closer look

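Ttc27 differed between the chips. KO thalamus was below WT thalamus by 2.62 on the log2 scale on chip 1 (-2.62, replicates 1 and 2 of each genotype) and above it by 0.33 on chip 2 (limma adjusted p = 0.556), with no overlap between the genotypes on either chip. On chip 2 both KO arrays lay above both WT arrays in 22.7% of all genes compared. The difference between the chips was not tested.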

How the results depend on the processing

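Counts moved with signal processing. Quantile normalization without background correction gave 38 genes higher and 79 lower in KO thalamus than in epithalamus, with 8 thalamus-high genes kept and 7 lost, 28 epithalamus-high kept and 1 lost, and 22 newly higher and 28 newly lower. The deposited log2 values gave 73, 130, 16, 21, 47, 6, 38 and 40 in that order, 3-fold in place of 2-fold 31, 88, 8, 11, 28, 5, 14 and 34, and 1.5-fold 495, 660, 80, 74, 175, 50, 244 and 163. The median over probes gave 23 lost thalamus-high genes and turned the KO minus epithalamus difference of Cntn5 to -0.09 and that of Sdk2 to 0.25. Of the lost and of the kept thalamus-high genes, 5 of 7 and 8 of 8 without background correction were in the main classes, 20 of 21 and 16 of 16 with the deposited values, and 9 of 11 and 8 of 8 at 3-fold. A detection p of 0.01 or no detection filter moved no chip 1 count by over 1.5 times.

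Leaving out 1 array gave ranges of 185 to 195 genes higher and 302 to 340 lower in KO thalamus, 29 to 60 kept and 38 to 166 lost thalamus-high, 81 to 129 kept and 11 to 174 lost epithalamus-high, 80 to 116 newly higher and 109 to 146 newly lower. On chip 2 it gave 5 to 292 called lower and 0 to 221 higher, with 4 to 24 of the 36 lost thalamus-high genes called. Chip 2 calls were 1 lower and 0 higher (unadjusted p under 0.05: 1529 and 1138) with 1 lost gene called without the detection filter, where 23388 genes were tested, 25, 6 and 13 without background correction, and 2, 1 and 0 with replicate 5 included. The deposited values gave 72 called higher. The replicate block gave 777 lower, 639 higher and 34 lost genes called. The labels do not say that numbers pair arrays, and the deviations of same-numbered arrays correlated at 0.12 over 2 pairs. Under each of these the lost thalamus-high genes had a median below 0 on chip 2. The cause of these moves was not tested. Dim genes near background could not be compared well.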
